A study of Mus musculus with 8 samples.

Results

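The cytosolic ribosomal protein genes encode the protein subunits of the ribosomes that translate nuclear mRNAs. They were taken as the protein-coding genes of the GENCODE M21 annotation on chromosomes 1 to 19 with a symbol of the form Rpl or Rps followed by a number and at most 1 letter, or one of Rplp0, Rplp1, Rplp2 and Rpsa, without the S6 kinases. This rule found 76 of 20722 protein-coding genes, 46 for the large and 30 for the small subunit. It uses names only, so no measured value chose the members. Ribosomal protein genes on the X chromosome and those with other names (such as Fau, Rack1 and Rps3a1) fall outside it.

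Histone H3 trimethylated at lysine 36 (H3K36me3) is laid down by the methyltransferase Setd2, which travels with elongating RNA polymerase II, so the mark lies over the bodies of transcribed genes and is richest towards their 3′ ends. Ribosomal protein genes are among the most strongly transcribed genes of growing cells. They are short, many carry small nucleolar RNA (snoRNA) genes in their introns, and the mammalian genome holds many processed pseudogenes copied from their mRNAs. Their transcripts typically begin with a run of pyrimidines, the 5′ terminal oligopyrimidine (TOP) tract, through which their translation is controlled together.

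The cells were mouse embryonic fibroblasts (MEFs) from 1 embryo at E13.5, called Clone 1 in the labels. All 4 cultures were i4F MEFs, which carry a doxycycline-inducible cassette for Oct4, Sox2, Klf4 and cMyc (OSKM), and all were kept in iPSC medium for 72 h. MEF had no doxycycline, MEF B12 had 2 µM vitamin B12, OSKM had 1 µg ml−1 doxycycline according to the labels, and OSKM B12 had both. H3K36me3 was measured by chromatin immunoprecipitation and sequencing (ChIP–seq), with 1 H3K36me3 library and 1 input library per condition. There are therefore no replicates: every difference given here is between single libraries of cells from 1 embryo, no test of a condition was possible, and intervals cover counting error only.

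The H3K36me3 libraries held between 29046913 and 33399267 tags and the inputs between 34524486 and 36150875. On chromosomes 1 to 19, peaks spanned 150.5 Mb in MEF, 91.8 Mb in OSKM and 162.6 Mb in either culture with B12, so OSKM was the library with the least peak sequence although it had the most tags. All 8 fibroblast markers had a peak over 10% or more of the body in every list. Of 16 markers of epithelial, blood, endothelial, neural and muscle cells, 12 had no peak in MEF and 14 had none in OSKM. Those with a peak over 10% or more of the body in MEF were Cd68 (100%), Csf1r (20.2%) and Tubb3 (25.1%). The blood markers Cd68 and Csf1r passed 10% in every list, and the neural marker Tubb3 had no peak in OSKM.

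The gene bodies of the members, each taken as the longest protein-coding transcript, had a median length of 3.244 kb (828 to 31397 bases), and 61 of 76 were shorter than 5 kb. They held 1 to 10 exons. A total of 52 snoRNA genes lay inside 26 of them. Neighbours were close: 16 members overlapped another protein-coding gene and 59 had one within 5 kb, so part of a peak over a member can belong to a neighbour.

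The sequences below show how the exons of these genes recur elsewhere in the genome. Each is the 3′ end of an internal exon (75 bases, capitals) with the first 25 bases of the following intron (lower case), read 5′ to 3′ on the gene's strand from GRCm38.p6, the assembly called mm10 in the files. The first 3 are from genes with large falls from MEF to OSKM, and the last is from a gene with high density in all 4 libraries.
Rpl15 exon 3, chr14:18269882-18269981, minus strand: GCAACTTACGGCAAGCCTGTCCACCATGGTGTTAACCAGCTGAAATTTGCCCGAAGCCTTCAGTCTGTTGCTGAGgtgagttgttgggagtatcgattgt
Rps6 exon 2, chr4:86856703-86856802, minus strand: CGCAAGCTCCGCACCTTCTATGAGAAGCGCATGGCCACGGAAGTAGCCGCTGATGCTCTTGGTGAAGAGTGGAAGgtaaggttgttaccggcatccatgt
Rps2 exon 5, chr17:24721228-24721327, plus strand: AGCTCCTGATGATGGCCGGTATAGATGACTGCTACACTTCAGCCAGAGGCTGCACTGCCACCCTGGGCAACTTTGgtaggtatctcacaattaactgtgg
Rpsa exon 2, chr9:120128548-120128647, plus strand: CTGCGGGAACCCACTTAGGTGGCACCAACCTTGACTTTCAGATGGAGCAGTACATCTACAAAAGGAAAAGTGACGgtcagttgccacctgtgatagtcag
The capital stretch occurred, letter for letter and counting the gene itself, at 5 places of the genome for Rpl15, at 5 for Rps6, at 20 for Rps2 and at 4 for Rpsa. The stretch of equal length that takes its last 25 bases from the intron occurred at 1 place for each of these genes.

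The start regions differ in the tract that gives TOP mRNAs their name. Below are 10 bases before and 20 bases from the annotated start of 5 members, from RefSeq on GRCm38.p6, with capitals for the longest run of a C followed by C or T bases, of at least 5 bases in all, that starts within 5 bases of the annotated start.
Rpl15, chr14:18270967-18270996, minus strand: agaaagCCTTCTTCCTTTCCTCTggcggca
Rps6, chr4:86857348-86857377, minus strand: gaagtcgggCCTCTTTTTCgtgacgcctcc
Rpl13a, chr7:45128726-45128755, minus strand: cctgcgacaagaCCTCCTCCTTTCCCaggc
Rps27, chr3:90213629-90213658, minus strand: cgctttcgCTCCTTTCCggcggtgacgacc
Rpsa, chr9:120127756-120127785, plus strand: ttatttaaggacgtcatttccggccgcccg
The tract was searched on the transcribed strand only. It was in 25 of the 56 members that had a start in the table (44.6%), against 18.3% of all 32841 starts. With a start for fewer than 80% of the members, the check over the whole set is void, and the window of Rpsa says only that the tract is not in those letters.

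H3K36me3 covered most of the body of a typical ribosomal protein gene in 3 of the 4 libraries and about as much of it as not in OSKM. The median share of the body in a peak was 60.8% in MEF and 61.8% in MEF B12, and 48.9% in OSKM and 62.0% in OSKM B12. OSKM therefore stood below the other 3 libraries, which lay close together. At least 50% of the body was in a peak in 49 members in MEF and 51 in MEF B12, and 36 in OSKM and 55 in OSKM B12. These were 64.5%, 67.1%, 47.4% and 72.4% of the members, against 22.2%, 24.3%, 11.9% and 24.6% of all coding genes. A peak was present in 71, 72, 67 and 70 members in the same order, and 67 members had one in all 4 lists. Of all 20722 coding genes, 10896, 11059, 10291 and 11164 had a peak.

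The amount of signal was measured as density, the pileup (mean fragment depth) of the peaks in a gene body, summed over its bases, per 1000000 tags of the library and divided by the length of the body. Wherever 4 values stand in a row, their order is MEF, MEF B12, OSKM, OSKM B12. The median density of the members was 0.438 in MEF and 0.528 in MEF B12, and 0.253 in OSKM and 0.530 in OSKM B12. OSKM gave the lowest of the 4 densities in 69 members, and the highest was in OSKM B12 in 40 and in MEF B12 in 27. The lowest and highest library were not counted over other genes. For comparison, 8966 coding genes had, on average over the 4 lists, 10% or more of the body in a peak, and are called marked genes below. Their medians were 0.295, 0.353, 0.148 and 0.369, and the median member lay above 72.1%, 73.9%, 72.7% and 70.9% of them. The ranks of the ribosomal protein genes among marked genes thus differed little between libraries, while their levels differed. Of the members, 8 were not marked genes by this measure.

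**Figure D1:**
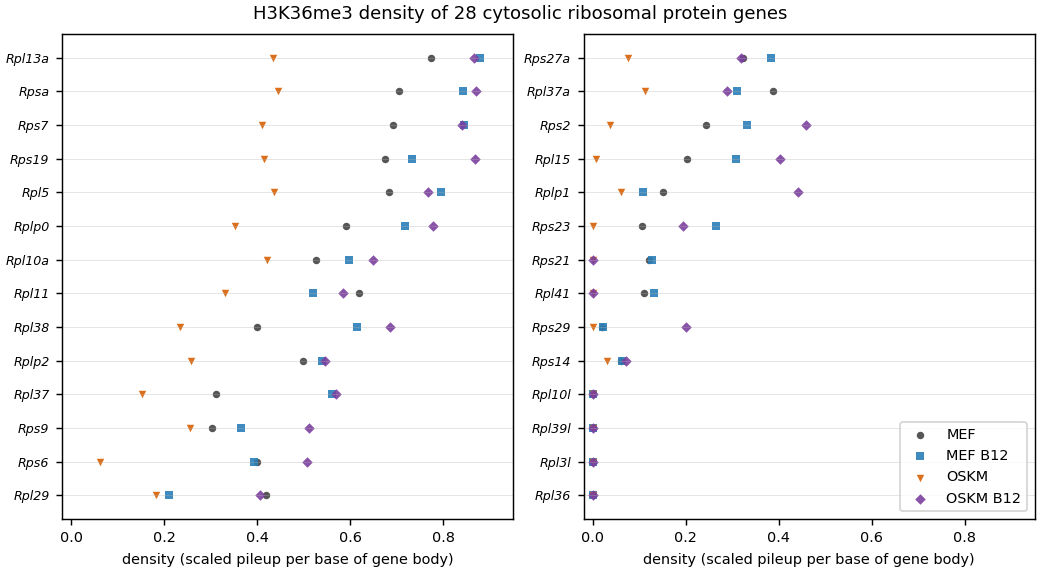
Density of H3K36me3 (scaled pileup per base of gene body, x axis) for 28 of the named genes in the 4 libraries, 1 library per condition, sorted by the mean of the 4. In 22 of them the OSKM value (orange triangle) lies below those of all other libraries, in Rps21 and Rpl41 it is 0 together with that of OSKM B12, and the 4 genes at the end have no peak in any list.

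Among the genes with the highest mean density were Rpl13a, Rpsa, Rps7, Rps19 and Rpl5. Rpl13a, a large-subunit protein gene that hosts 4 snoRNA genes (chr7:45125558-45128761), had densities of 0.773 in MEF and 0.880 in MEF B12, and 0.434 in OSKM and 0.865 in OSKM B12. Rpsa, which encodes a small-subunit protein also known as the laminin receptor precursor (chr9:120127689-120132369), had 0.706, 0.843, 0.445 and 0.870 in the same order. Both were therefore highest in a culture with B12 and lowest in OSKM. Rps7 (chr12:28630854-28635953) had 0.693, 0.844, 0.410 and 0.841. At these 3 genes OSKM lay between 0.410 and 0.445, close to the median of all members in MEF.

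Rps19 and Rpl5 are known from Diamond–Blackfan anaemia, in which mutations of single ribosomal protein genes impair red cell production. Rps19 (chr7:24884371-24889806) had 0.674 in MEF and 0.733 in MEF B12, and 0.413 in OSKM and 0.868 in OSKM B12. Rpl5 (chr5:107900502-107909005) had 0.683, 0.795, 0.436 and 0.766, with 76.9%, 78.8%, 77.3% and 77.9% of its body covered. The peak over Rpl5 thus kept its extent in OSKM and was lower in height. Its partner in the 5S ribonucleoprotein that binds Mdm2, Rpl11 (chr4:136049731-136053393), had 0.619, 0.520, 0.330 and 0.585 and was among the few members that were lower with B12 in MEF.

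The 3 genes of the P stalk, the flexible arm that recruits elongation factors to the ribosome, had unequal levels. Rplp0, its base (chr5:115559467-115563727), had densities of 0.590 in MEF and 0.718 in MEF B12, and 0.352 in OSKM and 0.778 in OSKM B12. Rplp2 (chr7:141447370-141451585) had 0.499, 0.538, 0.258 and 0.545, and Rplp1 (chr9:61913284-61914542) had 0.151, 0.108, 0.0610 and 0.441. OSKM was lowest at all 3, and the body of Rplp1 is 1.259 kb long against 4.261 kb for Rplp0.

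Rps27a encodes a small-subunit protein fused to ubiquitin. Its density (chr11:29545846-29548109) was 0.323 in MEF and 0.383 in MEF B12, and 0.0750 in OSKM and 0.317 in OSKM B12. The lowest of the 4 was again OSKM.

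At the low end were genes with short bodies. Rpl36 (828 bases, chr17:56613416-56614243) had no peak in any list, and neither had the tissue-restricted paralogs Rpl10l, Rpl39l and Rpl3l, known from testis and muscle. Rps21 and Rpl41, whose bodies measure 1.069 and 1.192 kb, were at 0 in OSKM and in OSKM B12, against 0.121 and 0.111 in MEF and 0.128 and 0.131 in MEF B12. They were the 2 members with a peak in MEF that had none in OSKM B12. Rps29 had 0.0198 in MEF and 0.0211 in MEF B12, and 0 in OSKM and 0.199 in OSKM B12. No peak means no enrichment detectable at this depth.

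The low density of Rps14 goes with its body definition. Its longest transcript starts far upstream of the common one and runs over 31.397 kb, and only 7.004%, 7.03%, 5.19% and 7.396% of that body was in a peak in the 4 libraries. Over its shortest principal transcript (2.307 kb) the shares were 95.3%, 95.7%, 70.7% and 100%. Rpl3 changed in the same way, from 15.8% to 86.2% in MEF, when its body was taken as 5.616 kb and not 10.973 kb. This body definition was chosen after seeing the data.

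The covered share followed the length of the body. Members under 2.5 kb (18 genes) had a median share of 37.4% in MEF and 19.8% in OSKM, those of 2.5 to 4 kb (31 genes) 61.5% and 49.2%, and those of 4 kb or more (27 genes) 73.4% and 60.3%. Across the 76 genes, Spearman's rho between length and covered share was 0.525 in MEF and 0.511 in MEF B12, and 0.437 in OSKM and 0.522 in OSKM B12, a description of genes that share 1 library. The 357 other marked genes from 2.5 to 4 kb had a median share of 43.4% in MEF and 29.6% in OSKM, lower than that of the members. The 1649 others from 4 to 10 kb were also lower, with 54.5% and 38.6%. Under 2.5 kb the order was reversed, with 43.8% and 25.9% in the 215 other marked genes. Members of that class include genes that are not marked, such as Rpl36.

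**Figure D2:**
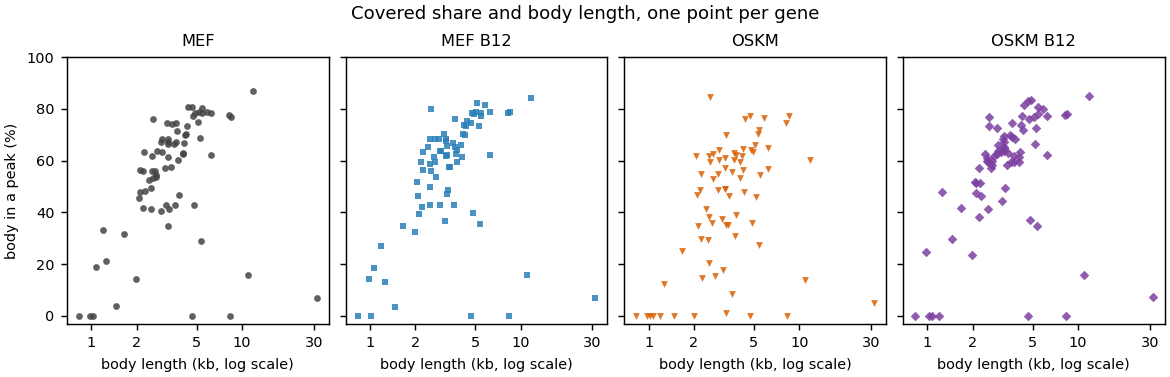
Share of the gene body in a peak (%, y axis) against body length (kb, log scale) for the 76 genes, 1 panel per library. The shortest body, Rpl36 at 828 bases, lies at 0 in every panel, and shares rise with length up to about 5 kb. Among the longest bodies, Rpl3 at 11 kb and Rps14 at 31 kb lie low. Rps15a at 11.817 kb lies high, with 86.8% in MEF and 60.3% in OSKM.

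Peaks lay away from the start of these genes. In MEF, only 1 member had a peak over its transcription start, and the first base in a peak lay at a median of 1.17 kb from the start, against 1.14 kb in MEF B12, 1.53 kb in OSKM and 1.12 kb in OSKM B12. In 55 of the 67 members with a peak in both, that distance was greater in OSKM than in MEF. Peaks ran past the transcript end in nearly every case: they reached it in 70 members in MEF and 71 in MEF B12, and 61 in OSKM and 68 in OSKM B12, and ended a median of 1.83, 2.13, 1.31 and 2.35 kb beyond it. Called peaks thus started later and stopped earlier on these genes in OSKM than in the other 3 libraries. Such edges depend on the peak threshold, so they do not show where the mark itself begins or ends. In 18 to 25 members per library the peak also touched another coding gene.

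By distance from the start, the mean share of bases in a peak stayed under 3% over the first 0.5 kb in every library. Between 1 and 1.25 kb it was 37.4% in MEF and 16.9% in OSKM, and between 1.75 and 2 kb it was 82.0% and 67.6%. Of all steps of 0.25 kb, the gap between the 2 libraries was widest from 1.25 to 1.5 kb, with 63.8% in MEF and 33.3% in OSKM. In that step, other marked genes with a body under 10 kb had 16.6% in MEF and 8.97% in OSKM. With each body divided into 5 equal parts, 2.13% of the first and 90.2% of the last part were in a peak in MEF, and 2.25% and 78.9% in OSKM. In the 2221 other marked genes with a body under 10 kb these shares were 7.36% and 79.3% in MEF and 5.26% and 60.5% in OSKM.

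**Figure D3:**
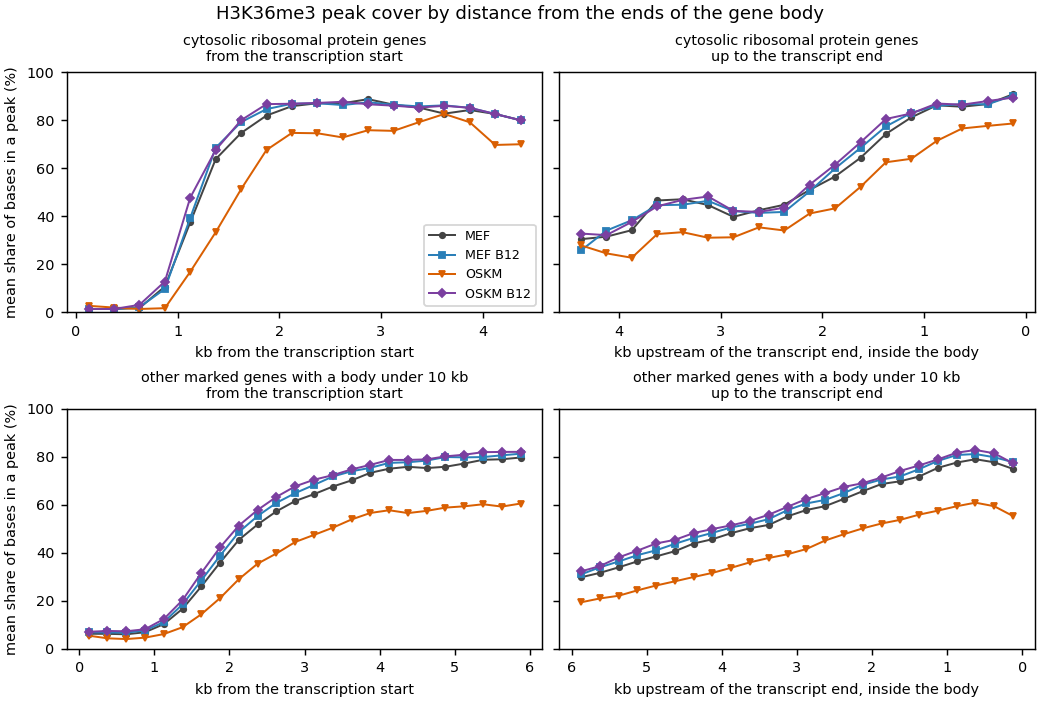
Mean share of bases in a peak (%, y axis) in steps of 0.25 kb from the transcription start (left) and up to the transcript end (right), for the ribosomal protein genes (top) and other marked genes with a body under 10 kb (bottom), 1 line per library. Only genes long enough to reach a step are averaged there. In the ribosomal protein genes the share rises from under 3% in the first 0.5 kb to over 80% near 2 kb in the libraries other than OSKM, and the OSKM line rises later.

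Exonic bases of the members were in a peak more often than intronic bases, 63.4% against 49.7% in MEF and 52.7% against 40.3% in OSKM. Marked genes with a body under 10 kb had the same order, with 62.1% against 46.3% in MEF and 47.6% against 33.3% in OSKM. So had mitochondrial ribosomal protein genes, with 60.9% against 35.6% and 44.1% against 21.8%. These shares are pooled over bases, so that the long body of Rps14 weighs on the small-subunit genes, which had 68.4% against 46.3% in MEF, while the large-subunit genes had 59.99% against 52.6%. Among the members with a snoRNA gene inside, the median covered share was 66.6% in MEF and 57.8% in OSKM, and among the other 50 it was 58.8% and 42.5%. The snoRNA hosts had a median body of 3.21 kb and the others of 3.33 kb, a small difference in length.

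The comparison of OSKM with MEF sets 72 h with doxycycline, which induces OSKM, beside 72 h without it. OSKM expression, doxycycline itself and differences between single libraries cannot be told apart in it. Density was lower in OSKM in 71 members, higher in 0, and at 0 in both libraries in the remaining 5. Of the 8966 marked genes 8822 were lower and 122 higher, and of all 20722 coding genes 10675 and 545. The median ratio of OSKM to MEF was 0.628, computed with 0.05 added to each density. By at least 1.5-fold, 50 of 76 members (65.8%) were lower, of which Rps21, Rpl41 and Rps23 had no peak in OSKM. This count depends on the computation: it was 25 with 0.2 added to each density in place of 0.05, and 20 of 67 on the bases in a peak in both libraries. The same was true of 31.4% of all coding genes, many of which have no peak at all, of 69.3% of marked genes (median ratio 0.610), and of 55.1% of the 2287 marked genes with a body under 10 kb (median ratio 0.645). The share of the ribosomal protein genes lay between the last 2. It is taken over all 76 members, of which only 68 are marked genes, so the sets are not alike.

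Mitochondrial ribosomal protein genes (78 genes) had a median ratio of 0.630, and genes for translation initiation and elongation factors (65 genes) also had 0.630. The large- and small-subunit genes had medians of 0.624 and 0.634. The 4 ribosomal protein genes on the X chromosome had a median of 0.367, computed from bodies at which MEF density was 0.155 in the median. None of these lists stood for a separate measurement, since all share the same pair of libraries.

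The peaks were lower in height as well as narrower. Over the 132.2 kb of members' bodies that were in a peak in all 4 libraries, the mean scaled pileup was 0.804 in MEF and 0.913 in MEF B12, and 0.553 in OSKM and 0.937 in OSKM B12. The ratio of OSKM to MEF on these bases was 0.687, against 0.755 over the 76.4 Mb of all coding bodies so covered. Taking for each member the bases that MEF and OSKM peaks shared, the 95% exact (Clopper–Pearson) interval of the tag ratio lay below 1 in 43 of 67 members and above 1 in 0. Such intervals were not computed for other genes, so this count has no background.

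The largest falls among members covered on average by at least 10% were at Rpl15, Rps6, Rps2 and Rpl41. Rpl15, a large-subunit gene (chr14:18267823-18271067), had densities of 0.202 in MEF and 0.307 in MEF B12, and 0.00557 in OSKM and 0.402 in OSKM B12, for 34.7%, 47.2%, 1.20% and 65.0% of its body. The peak all but left the gene in OSKM. Rps6, whose product is the classical substrate of the S6 kinases (chr4:86854660-86857412), had 0.400, 0.393, 0.0625 and 0.506. Rps2, a small-subunit gene near the mRNA entry channel (chr17:24718116-24721720), had 0.243, 0.331, 0.0361 and 0.458. At Rps6 and Rps2 too, OSKM was the lowest library and OSKM B12 the highest.

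At Rpl15 only 0.039 kb was shared by the MEF and OSKM peaks, too little for a ratio. At Rps6 the ratio on the 0.421 kb in a peak in both was 0.650, with an interval of 0.350 to 1.18 that includes no difference. At Rps2 the shared 0.310 kb lay at the upstream end of the longest transcript, away from the main peak of the gene. Over its shortest principal transcript (1.82 kb), which starts further downstream, 65.9%, 60.8%, 10.3% and 70.2% of the body was in a peak.

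Among the members with the smallest falls were Rps9 and Rpl10a, which encode structural proteins of the small and the large subunit. Rps9 (chr7:3703993-3706897) had densities of 0.303 in MEF and 0.364 in MEF B12, and 0.256 in OSKM and 0.510 in OSKM B12, and Rpl10a (chr17:28328471-28331033) had 0.527, 0.596, 0.420 and 0.649. The covered share of both was higher in OSKM than in MEF, 48.8% against 40.4% at Rps9 and 84.5% against 76.005% at Rpl10a. They belong to the 9 members with a larger covered share in OSKM, while 62 had a smaller one. Among the 8966 marked genes 418 had a larger and 8499 a smaller share.

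**Figure D4:**
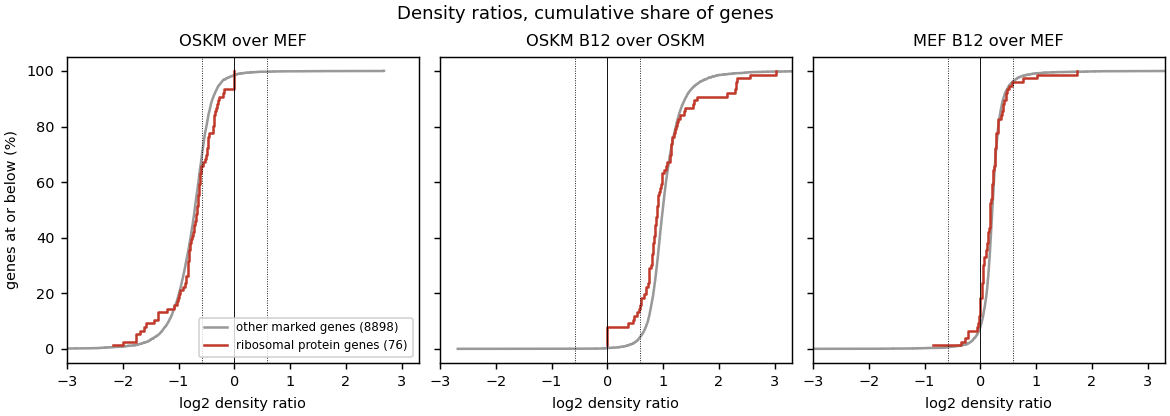
Cumulative share of genes (%, y axis) by log2 density ratio (x axis) in 3 comparisons, for the 76 ribosomal protein genes (red) and 8898 other marked genes (grey), with dotted lines at 1.5-fold. The curves lie close together in each panel. The red curve has a step at 0 in the first and second panels from members without a peak in either library.

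With B12 added during OSKM expression, density was higher in 70 members, lower in 0, and at 0 in both in 6. Of the 8966 marked genes 8937 were higher and 20 lower, and of all 20722 coding genes 11090 and 314. The median ratio of OSKM B12 to OSKM was 1.86. At least 1.5-fold higher were 64 of 76 members (84.2%), of which Rps23, Rps27 and Rps29 had no peak in OSKM. Among all coding genes 44.3% were higher by this measure, among marked genes 95.7% (median ratio 1.99), and among those with a body under 10 kb 89.5% (median ratio 1.94). The members' share lay below both, and 8 members, unlike marked genes, have little or no covered sequence. Mitochondrial ribosomal protein genes had a median of 1.96 and translation factor genes of 1.92.

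On the bases in a peak in all 4 libraries the ratio was 1.70 for the members and 1.57 over all coding bodies. The interval of a member's own tag ratio was above 1 in 57 of 67 members, again without a count over other genes. The largest ratios among members covered on average by at least 10% were those of the genes that had fallen most: 8.13 at Rpl15, 5.90 at Rps2 and 4.95 at Rps6, each with the densities given above. They share the OSKM library with the comparison to MEF, so a low OSKM value alone raises the one ratio and lowers the other. Rps23, a protein of the decoding centre (chr13:90922958-90924950), was listed at 0 in OSKM and had 0.193 in OSKM B12, 0.105 in MEF and 0.264 in MEF B12.

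OSKM B12 reached or passed MEF at most of these genes: density was higher than in MEF in 60 members. Marked genes as a whole had the same order, with a median density of 0.369 in OSKM B12 against 0.295 in MEF. Among the 12 members that had a peak in MEF and lay lower in OSKM B12 were Rpl11, Rpl29, Rps27a and Rpl37a, beside Rps21 and Rpl41. Whether such differences between 2 libraries exceed the variation between cultures could not be tested.

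With B12 in MEF without doxycycline the differences were small. Density was higher in 62 members, lower in 10 and at 0 in both in 4, with a median ratio of 1.13 against 1.16 for marked genes. Of the 8966 marked genes 8238 were higher and 724 lower, and of all 20722 coding genes 9948 and 1391. No more than 3 of 76 members (3.95%) were higher by at least 1.5-fold. The same was true of 2.38% of all coding genes, 3.71% of marked genes and 9.62% of marked genes with a body under 10 kb. The members' share lay within that range and close to the background of marked genes. The count of members ranged from 0 to 7 under other ways of computing it. The 3 were Rps27, Rps23 and Rpl37. The interval of the tag ratio lay above 1 in 13 of 71 members and below 1 in 0, and was not computed for other genes. On the bases in a peak in all 4 libraries the ratio was 1.13 for the members and 1.14 over all coding bodies. MEF B12 was also the library with the fewest tags, and without the division by tags the median ratio was 1.02.

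Rpl37 (chr15:5116645-5119140) had densities of 0.311 in MEF and 0.560 in MEF B12, and 0.152 in OSKM and 0.568 in OSKM B12. Rpl38, a large-subunit gene with a known role in axial patterning of the embryo (chr11:114668524-114672331), had 0.399, 0.615, 0.234 and 0.685. At both, the 2 cultures with B12 were higher than the 2 without. Rpl29 (chr9:106429454-106431568) went the other way in MEF, with 0.419 in MEF and 0.210 in MEF B12, and 0.182 in OSKM and 0.405 in OSKM B12, and was the 1 member lower by at least 1.5-fold in MEF B12. On the 0.819 kb in a peak in both MEF libraries its ratio was 0.724 with an interval of 0.485 to 1.08. Rpl37a had 0.387 in MEF and 0.310 in MEF B12.

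Paralogs differed widely in covered share. Rps27 (981 bases) had 0%, 14.3%, 0% and 24.9% of its body in a peak, while its paralog Rps27l (3427 bases), a p53 target, had 74.0%, 57.5%, 46.5% and 62.8%. The intronless Rps27rt had no peak. Rpl22 had 77.6%, 78.3%, 74.5% and 77.5%, and Rpl22l1 had 28.5%, 31.4%, 0% and 30.3%. Rpl7 had 57.4%, 57.4%, 35.0% and 58.5%, and Rpl7l1 had 76.9%, 81.3%, 75.6% and 86.1%. The X-linked parent genes Rpl10 and Rpl39 had peaks in MEF over 46.9% and 24.04% of their bodies, while Rpl10l and Rpl39l, the autosomal copies, had none. X-linked Rpl36a had 22.6% in MEF and its intron-poor copy Rpl36al 0%.

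Sequence that recurs elsewhere was concentrated in the exons, as in the exon ends printed above. Of all 75-base windows lying within members' exons, 25.1% occurred letter for letter at another place on chromosomes 1 to 19, X or Y, against 0.534% of the windows within introns. In mitochondrial ribosomal protein genes these shares were 3.23% and 3.02%. The study's methods name a Bowtie setting and describe it as placing a read that aligns repeatedly at a single position, whereas the option named usually discards such reads. Which of these applied could not be settled from the peak lists.

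In 12 members at least 10% of the windows recurred: Rps6, Rpl29, Rpl15, Rpl36, Rpl41, Rpl10l, Rps23, Rpl10a, Rps2, Rpl7a, Rpl13 and Rpsa. Their median covered share was 48.1% in MEF and 11.9% in OSKM, against 62.0% and 51.0% in the other 64. Their median body was 2.559 kb against 3.494 kb, and their median ratio of OSKM to MEF was 0.572 against 0.628. The 4 genes with the largest falls among members covered on average by at least 10% all belong to the 12, but so do Rpl10a, with one of the smallest, and Rpsa, with one of the highest densities. The part of recurring sequence and of body length in these falls was not tested.

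**Figure D5:**
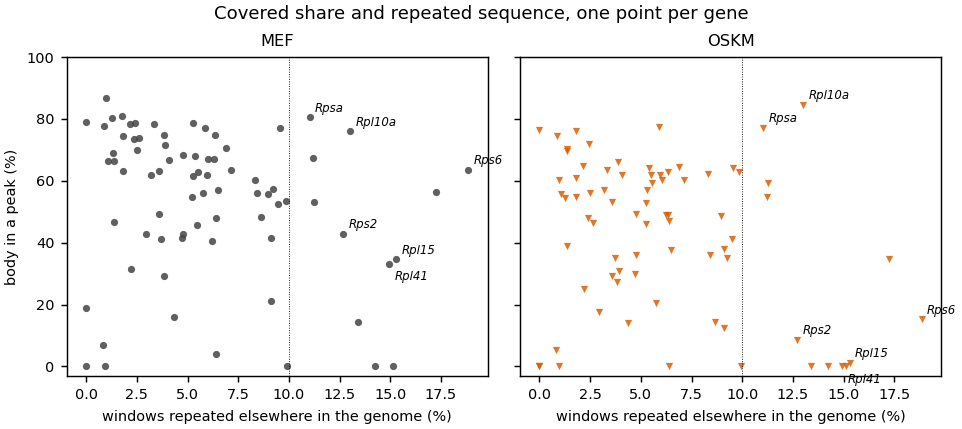
Share of the body in a peak (%, y axis) against the share of 75-base windows that occur elsewhere in the genome (%, x axis), 1 point per gene, in MEF and OSKM, with a dotted line at 10%. Right of the line, Rps6, Rps2, Rpl15 and Rpl41 lie far lower in OSKM than in MEF, while Rpl10a and Rpsa stay above 75%.

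Other genes of ribosome production were also lowest in OSKM in the median, as were marked genes as a whole. Of 18 ribosome biogenesis genes, 17 lie on chromosomes 1 to 19 and 16 of these were covered by at least 10% in every list, with median densities of 0.596 in MEF and 0.690 in MEF B12, and 0.303 in OSKM and 0.643 in OSKM B12. Lower in OSKM than in MEF by at least 1.5-fold were 9 of the 17, and higher in OSKM B12 than in OSKM were 16. For comparison, 69.3% of marked genes were lower in OSKM and 95.7% were higher in OSKM B12. Of all coding genes these shares were 31.4% and 44.3%. Npm1, the nucleolar chaperone nucleophosmin, had 0.635, 0.737, 0.247 and 0.643, and Ncl, which encodes nucleolin, had 0.723, 0.870, 0.404 and 0.774. Rrs1 had no peak.

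The other lists were small, and the same shares of marked genes (69.3% and 95.7%) stand beside them. Of 6 RNA polymerase I genes, 3 were lower in OSKM and 6 were higher in OSKM B12 by at least 1.5-fold, and of 3 genes for 5S rRNA transcription 0 and 3. Of 5 genes that control the translation of TOP mRNAs, 2 were lower in OSKM and 5 were higher in OSKM B12. Rps6kb1, the kinase of Rps6, was among the former, with densities of 0.450 in MEF and 0.521 in MEF B12, and 0.212 in OSKM and 0.458 in OSKM B12. Fau and Rack1, which encode ribosomal proteins under other names, had ratios of OSKM to MEF of 0.678 and 0.750, neither past 1.5-fold, and both were past it with B12. In no gene of these lists was the density past 1.5-fold in the opposite direction or between MEF B12 and MEF.

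Under a stricter peak threshold, a −log10 q of at least 5, a peak remained in 65 members in MEF and 69 in MEF B12, and 21 in OSKM and 68 in OSKM B12. The corresponding shares were 85.5%, 90.8%, 27.6% and 89.5% of the members and 72.5%, 79.8%, 22.1% and 82.8% of marked genes. Of all coding genes they were 33.0%, 36.6%, 9.77% and 38.1%. With this threshold the median density ratio of the members was 0.178 for OSKM to MEF and 8.53 for OSKM B12 to OSKM. In most members with a peak in OSKM, that peak thus lay between the authors' threshold and this one.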

How the data were processed

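H3K36me3 ChIP–seq was measured in 4 libraries, 1 per condition, each with its own input. According to the submitters' processing notes and the paper's methods, the authors used Bowtie 0.12.9 for alignment to mm10 and MACS2 2.2.6 for broad peaks, library by library, at q-values of 0.05 and 0.1 per the file headers. The pileup column, a signal as deposited, averages the depth of extended fragments over the bases of a peak. The fold enrichment in the authors' files is a ratio of pileup to local input, and the −log10 p-value and −log10 q-value are the deposited significances. Reads outside peaks were not analysed here.

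Covered share and density were computed from these peaks with Python 3.11.15, numpy 2.4.6 and scipy 1.17.1. Pileup was divided by tags per 1000000, and ratios had 0.05 added to each density. Genes came from GENCODE M21 and start sequences from RefSeq on GRCm38.p6, in which 56 of 76 members matched. Past the fold means at least 1.5-fold. No p-value was computed. The interval sums were tested on simulated data.

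The members and lists were chosen with earlier results of these data known. Named genes were the 6 highest and 4 lowest (above 0) in mean density, those without a peak, the 4 largest and smallest falls from MEF to OSKM, the 4 largest rises with B12 in OSKM, the 3 largest and smallest changes with B12 in MEF (these among members covered by at least 10% on average), 9 genes of known role, and paralog pairs. Some genes that this rule or the lists name are not reported here.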

Additional observations from a re-analysis of the deposited data

Results flagged for a closer look

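Between them, 10 of the 76 genes had a lower density with B12 in MEF and a higher one with B12 in OSKM, and 6 of these belong to the named genes and paralog pairs. They are listed because the 2 contrasts moved opposite ways, but each is 1 library against 1 library, so the difference was not tested. The density ratio of MEF B12 to MEF was 0.555 at Rpl29, 0.782 at Rplp1, 0.824 at Rpl37a, 0.852 at Rpl11, 0.853 at Rps27l and 0.984 at Rps6. The ratio of OSKM B12 to OSKM at the same genes was 1.96, 4.43, 2.10, 1.67, 1.65 and 4.95. On bases in a peak in both MEF libraries the ratio was 1.16 (0.527 to 2.79) at Rplp1 and 1.05 (0.764 to 1.45) at Rpl37a. It was 1.17 (0.882 to 1.54) at Rps6 and 1.08 (0.843 to 1.38) at Rps27l. On shared bases the ratio thus lay above 1 at these genes, within counting error. It stayed below 1 at Rpl11, with 0.864 (0.713 to 1.05), and at Rpl29, with 0.724 (0.485 to 1.08), also within counting error.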

How the results depend on the processing

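No paired analysis was possible because only 1 library was made per condition. Of 84 values recomputed under other choices, 68 stayed within the range taken as spread (the exact 95% interval of the median over genes, or 1.5 times a count), 16 moved and 0 reversed. With peaks of −log10 q of at least 5, the median covered share in OSKM was 0%, the median ratio of OSKM to MEF 0.178, that of OSKM B12 to OSKM 8.53, and 7 members were higher in MEF B12. With 0.2 added to densities the 2 ratios were 0.704 and 1.60, with 25 members lower in OSKM. On bases in a peak in both libraries compared they were 0.697 (20 members lower) and 1.67, and 0 members were higher in MEF B12. With fold enrichment they were 0.656 and 1.72, with 5 members higher in MEF B12. Without division by tags the ratios were 1.68 for OSKM B12 to OSKM and 1.02 for MEF B12 to MEF. The stricter threshold removes peaks. The shared-base setting keeps only bases in a peak in both libraries, leaves out members without such bases, and adds nothing to the values. The cause of the changes was not tested. The shortest principal transcript as body, an alternative chosen after seeing the data, moved none of the 10 values.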
